A study of Caenorhabditis elegans with 46 samples.

Results

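The microRNAs described here are the miR-2 family of Caenorhabditis elegans, which is made by 4 hairpins (mir-2, mir-43, mir-250 and mir-797). The members, as the word is used here, are the 8 mature arms of these hairpins, taken by name from the count tables: cel-miR-2-3p, cel-miR-2-5p, cel-miR-43-3p, cel-miR-43-5p, cel-miR-250-3p, cel-miR-250-5p, cel-miR-797-3p and cel-miR-797-5p. They were not chosen by seed, and the 5p and 3p arms of a hairpin are not taken to share one. They are 8 of the 473 worm arms in the tables and all 8 had enough counts to be tested, among 395 arms that did.

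MicroRNAs are short RNAs that guide Argonaute proteins to messenger RNAs by pairing through the seed near their 5′ end, and a family is a group of microRNAs that share a seed and so can pair with overlapping sets of targets. In Drosophila, microRNAs of the miR-2 family are known to repress proapoptotic genes. Each hairpin gives a 5p and a 3p arm, of which usually 1 is loaded into Argonaute and kept while the other is degraded.

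The series asked which microRNAs are present in a given cell type of an intact animal. A plant methyltransferase, Ath-HEN1, was expressed from a cell-type promoter and adds a methyl group to the 3′ end of microRNAs, which worm microRNAs otherwise lack. Sodium periodate oxidises unmethylated 3′ ends and so keeps them out of the library, and the comparison is therefore between an oxidised and an untreated library of the same genotype. Total RNA of whole L1 larvae gave 46 small RNA libraries, 23 untreated and 23 oxidised.

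There were 11 genotypes. Wild type worms (N2) carried no transgene and kept henn-1, the worm's own methyltransferase, which is known to act on small RNAs other than most microRNAs. Ath-HEN1 was driven by rps-5, a ribosomal protein gene promoter used for broad expression (named rps-5-3 in the design text), by the pan-neuronal promoters rab-3, unc-31 and rgef-1, by elt-2 in the intestine, by myo-2 in pharyngeal muscle, by myo-3 in body wall muscle and in the ASE sensory neuron pair. All of these drivers were used in henn-1(0) worms, which lack henn-1, and 2 of them, myo-3 and ASE, were also used in worms that kept it. Each group held 2 libraries, from 2 transgenic lines where there was a transgene, except rps-5, which held 3 libraries from 2 lines. Every genotype is therefore limited to 1 or 2 lines, and the cells labelled are those in which the promoter was active in these lines. Whole animals were extracted, so fewer cells of a type and less of an RNA per cell cannot be told apart.

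Total counts were 10674772 to 43302426 in untreated and 425711 to 35253784 in oxidised libraries. The marker microRNAs went mostly with the drivers. On the log2 oxidised-to-untreated scale, neuronal miR-124-3p was higher in rab-3 (0.98), unc-31 (1.44) and rgef-1 (2.47), muscle miR-1-3p in myo-3 henn-1(0) (3.51), myo-3 with henn-1 (2.85) and myo-2 (2.34), intestinal miR-60-3p in elt-2 (1.48), and lsy-6-3p, made in the left ASE neuron, in ASE henn-1(0) (4.60) and ASE with henn-1 (1.36). In rab-3 the intestinal miR-60-3p was not called lower (-0.74), and its oxidised level of 25856 ± 8943 CPM (counts scaled to a common library total; SD, n = 2) stood above those of unc-31 (2249 ± 262) and rgef-1 (2057 ± 311). Its part in the rab-3 results below was not tested. In the ASE lines neuronal miR-124-3p was called higher in ASE henn-1(0) (1.72) but lower in ASE with henn-1 (-1.84). The size of a fitted change depends on how the libraries are scaled. The median change over all arms in wild type moved by 2.39 on the log2 scale between TMM, the trimmed-mean scaling used for the fitted values, and the alternative median-ratio factors, so the family is also described by ratios of its members within a library, which no scaling alters.

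In untreated worms the family was dominated by miR-2-3p. The 4 hairpins lie on 4 chromosomes (build WBcel235). mir-2 lies at I:9372768-9372865 on the minus strand inside an intron of ppfr-1, a protein phosphatase regulatory subunit gene on the same strand. mir-43 lies at II:11889910-11890007 on the plus strand, starting 5 bases past the end of mir-42 and ending 16 bases before mir-44, and the noncoding RNA gene ZK930.12 overlaps it on the other strand. mir-250 lies at V:11769917-11770015 on the minus strand, 45 bases from mir-61. mir-797 lies at X:4757109-4757197 on the plus strand, 41 bases from mir-247.

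Over the 23 untreated libraries, miR-2-3p ranged from 37434 to 55390 CPM with a median of 46407, and its mean was the rank 4 level among worm arms. miR-43-3p ranged from 5043 to 7454 CPM (median 6423, rank 34) and miR-250-3p from 588 to 1905 CPM (median 1166, rank 61). These 3 arms are thus stepwise lower, and their ranges did not overlap. miR-2-5p had a median of 120.5 CPM, miR-43-5p of 35.2 CPM and miR-250-5p of 23.2 CPM. For mir-797 the 5p arm was the more abundant, with a median of 18.6 CPM for miR-797-5p and of 0.677 CPM for miR-797-3p, which had 5 to 35 counts a library. Of the summed 3p arms, miR-2-3p took 81.7% to 89.3%, miR-43-3p 8.63% to 14.2% and miR-250-3p 1.04% to 4.03%. Before oxidation no member passed the test between the 8 henn-1(0) genotypes and the 3 genotypes with henn-1 in edgeR's quasi-likelihood test, nor at an unadjusted p under 0.05 (0 of 8). Over all arms 0.253% were called, and in DESeq2 the 4 more abundant arms of the hairpins were not called either, with adjusted p of 0.267 to 0.865.

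In body wall muscle the level of miR-2-3p was no lower after oxidation than before. It stood at 67530 and 58913 CPM in the 2 oxidised myo-3 henn-1(0) libraries, against 52041 and 39648 CPM untreated. In myo-3 with henn-1 it stood at 66438 and 54894 CPM after oxidation and at 50985 and 46407 CPM before. In each of these 4 lines the oxidised library was above the untreated one of its line, and in no other genotype was that so in any line. In the pan-neuronal lines its oxidised levels were 32001 and 17546 CPM in rab-3, 21762 and 18737 CPM in unc-31 and 19949 and 19950 CPM in rgef-1. The untreated levels were 38143 and 46354 CPM in rab-3, 38012 and 50483 CPM in unc-31, and 44588 and 43739 CPM in rgef-1, so that untreated and oxidised libraries did not overlap in any of them. The intestine was at the other end. In elt-2 the arm fell from 38614 and 41540 CPM to 914 and 865 CPM.

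The remaining genotypes lay between these. The oxidised levels of miR-2-3p were 10655, 14986 and 9989 CPM in rps-5, 6385 and 7267 CPM in myo-2, 18076 and 15652 CPM in wild type, 12940 and 14014 CPM in ASE with henn-1, and 25700 and 33245 CPM in ASE henn-1(0). Their untreated levels, from 37434 to 55390 CPM, were all higher.

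**Figure D1:**
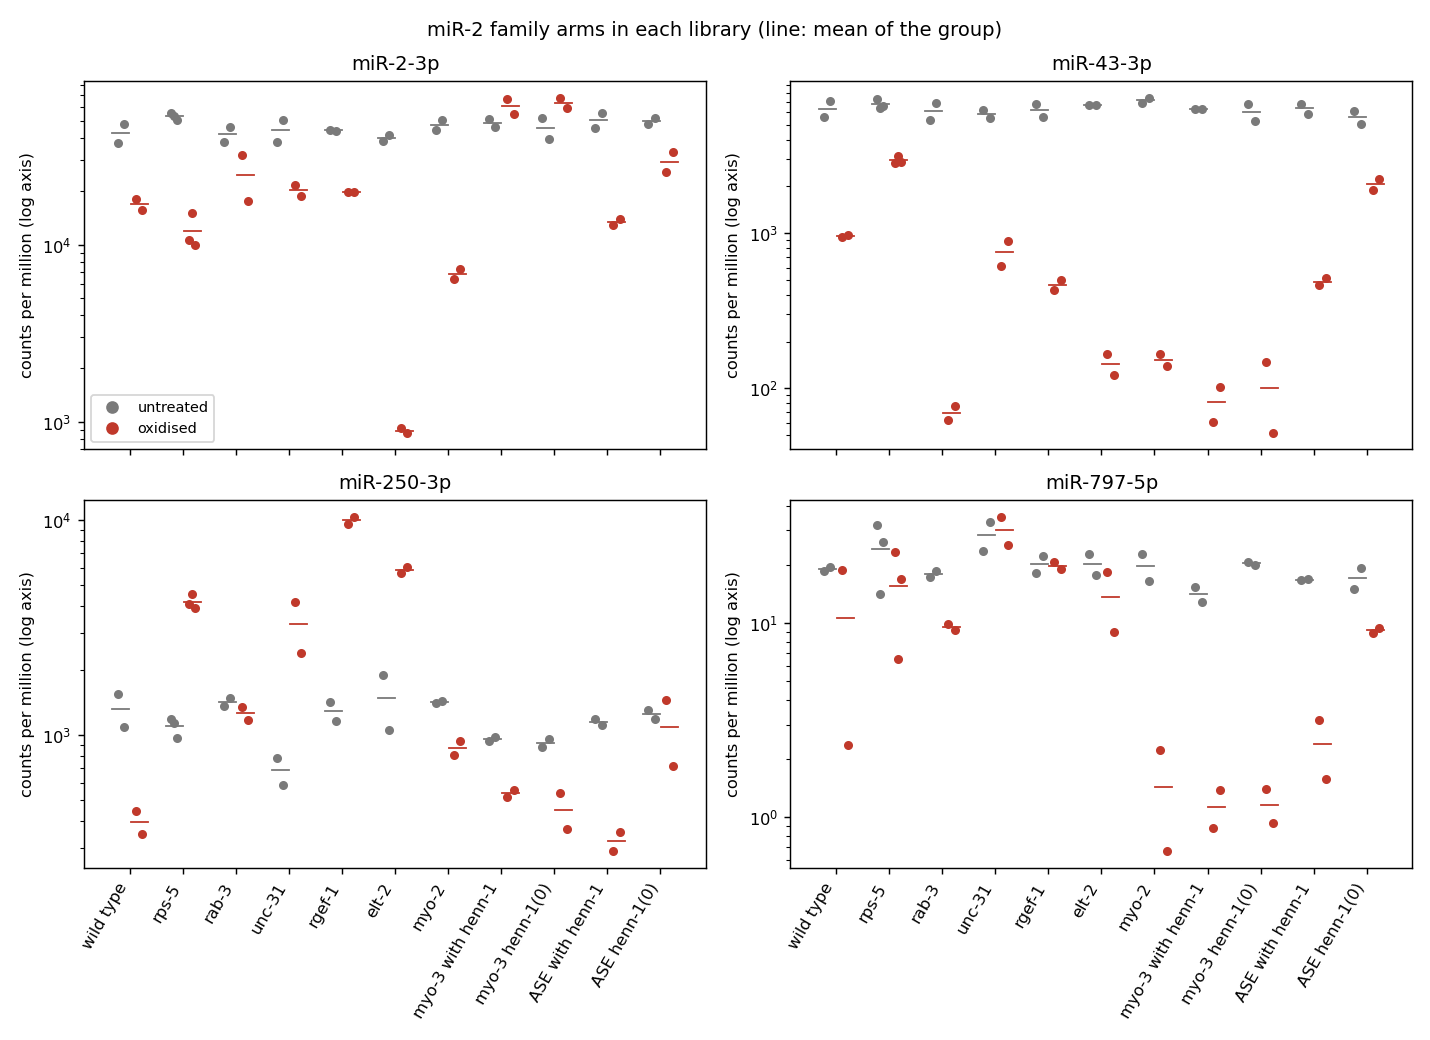
Level in CPM (log axis) of the more abundant arm of each hairpin in every library, by genotype, with untreated libraries in grey, oxidised libraries in red and a line at each group's mean. miR-2-3p stays at or above its untreated level in the myo-3 genotypes (54894 to 67530 CPM) and is at 865 to 914 CPM in oxidised elt-2, where miR-250-3p is at 5705 to 6074 CPM.

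In edgeR's quasi-likelihood fit over all 46 libraries, with Benjamini-Hochberg adjustment over the 395 arms, miR-2-3p was called lower in 9 of 11 genotypes. The order of its log2 effects (oxidised over untreated, ± SE) began with myo-3 henn-1(0) at 0.50 ± 0.29 (adjusted p = 0.122) and myo-3 with henn-1 at 0.24 ± 0.29 (adjusted p = 0.468). It went on with rab-3 at -1.21 ± 0.29, rgef-1 at -1.34 ± 0.29, ASE henn-1(0) at -1.42 ± 0.29, unc-31 at -1.87 ± 0.30, rps-5 at -2.45 ± 0.25, myo-2 at -2.77 ± 0.31, wild type at -3.47 ± 0.32 and ASE with henn-1 at -3.77 ± 0.32. It ended with elt-2 at -5.56 ± 0.35 (adjusted p = 8.29e-16). Of the 10 steps between neighbours in this order, 2 were called: from myo-3 with henn-1 to rab-3 (1.45 ± 0.41, adjusted p = 0.00325, with 46.1% of all arms called in either direction) and from ASE with henn-1 to elt-2 (1.79 ± 0.41, adjusted p = 0.000276, 58.7% of all arms called). In both called steps the driver and henn-1 change together and cannot be told apart. The other neighbours did not differ beyond their spread. The 2 myo-3 genotypes led and elt-2 closed the order under every scaling, filter and tool tried. With median-ratio factors miR-2-3p was called higher in myo-3 henn-1(0) (2.22) and in myo-3 with henn-1 (1.00). In myo-3 henn-1(0) it was also called higher without any 1 of its 4 libraries (1.55 to 1.80), without the filter on low counts (1.54) and in a fit of only its own libraries (1.75). Each fit that left out a library also recomputed the filter and the scaling. Here and below, a call that changed in such a fit is therefore not assigned to the library left out. The step to rab-3 was not called without the filter on low counts (1.18, adjusted p = 0.0716), nor without the line 18.4 rab-3 library, untreated (0.81) or oxidised (0.71), nor without the oxidised line 2 (0.66) or untreated line 11 (0.91) library of myo-3 with henn-1. The call in rab-3 itself ended without the untreated (-0.67) or oxidised (-0.58) line 18.4 library, and that in ASE henn-1(0) without its oxidised line 5 library (-0.71) or without the filter (-0.97).

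miR-43-3p fell after oxidation in every genotype, least in the broad rps-5 lines and in ASE henn-1(0), whose order depended on the scaling. In rps-5 the oxidised libraries held 2816, 3141 and 2863 CPM against 7311, 6423 and 6566 CPM untreated. In ASE henn-1(0) they held 1903 and 2247 CPM against 6144 and 5043 CPM. In unc-31 they held 618 and 893 CPM against 6207 and 5514 CPM, and in rgef-1 432 and 500 CPM against 6788 and 5628 CPM. The oxidised rab-3 libraries held far less of it than those of the other 2 pan-neuronal promoters: 62.9 and 76.8 CPM, against 5337 and 6940 CPM before. This was the range of the 2 myo-3 genotypes, which held 148.3 and 51.8 CPM in myo-3 henn-1(0) and 60.7 and 102.4 CPM in myo-3 with henn-1 after oxidation, against 5283 to 6808 CPM before. elt-2 (166.2 and 121.9 CPM) and myo-2 (166.7 and 139.3 CPM) were next after oxidation. Wild type, with no plant enzyme, kept 940 and 976 CPM, more than any oxidised pan-neuronal library. Whether the arm left in the pan-neuronal libraries came from labelled cells was not tested. ASE with henn-1 kept 460 and 511 CPM. No oxidised library of any genotype overlapped the untreated libraries, whose lowest value was 5043 CPM.

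The arm was called lower in 11 of 11 genotypes, and also under every scaling, filter, block and tool tried. Its log2 effects were -1.47 ± 0.25 in rps-5, -2.07 ± 0.31 in ASE henn-1(0), -3.81 ± 0.34 in unc-31, -3.94 ± 0.34 in rgef-1, -4.83 ± 0.35 in wild type, -5.57 ± 0.37 in myo-2 and in ASE with henn-1, -5.61 ± 0.37 in elt-2, -5.94 ± 0.37 in myo-3 henn-1(0), -6.36 ± 0.38 in myo-3 with henn-1 and -6.92 ± 0.39 in rab-3. Of 10 steps between neighbours 1 was called, from ASE henn-1(0) to unc-31 (1.74 ± 0.43, adjusted p = 0.00255, with 22.3% of all arms called). That step was not called without the filter (1.50) or in a fit of only the libraries compared (0.88), nor without either untreated or oxidised line 1 library of unc-31 (1.23 and 1.14) or the line 9 libraries of ASE henn-1(0) (1.18 and 1.10). Among the pan-neuronal drivers the effect in rab-3 was lower than in unc-31 by 3.11 ± 0.44 (adjusted p = 5.9e-06, 14.7% of all arms called) and than in rgef-1 by 2.98 ± 0.44 (adjusted p = 3.4e-06, 15.4% of all arms called). Between rgef-1 and unc-31 it differed by -0.13 ± 0.43, where 2.78% of all arms were called. The mean of the 3 pan-neuronal effects thus covers unlike values for this arm.

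miR-250-3p showed another pattern, in which it was higher after oxidation in elt-2, in rps-5 and in 2 of the 3 pan-neuronal drivers. In rgef-1 it rose from 1421 and 1166 CPM to 9631 and 10399 CPM. In elt-2 it rose from 1905 and 1061 CPM to 5705 and 6074 CPM, in the same libraries in which miR-2-3p fell under 1000 CPM. In rps-5 it rose from 1194, 1145 and 972 CPM to 4070, 4523 and 3891 CPM, and in unc-31 from 787 and 588 CPM to 4159 and 2413 CPM. In these 4 genotypes every oxidised library was above every untreated one. In rab-3, by contrast, the oxidised libraries at 1357 and 1171 CPM lay just under the untreated ones at 1372 and 1496 CPM. Both myo-3 genotypes were lower after oxidation, at 536 and 364 CPM in myo-3 henn-1(0) and 515 and 559 CPM in myo-3 with henn-1, against 883 to 981 CPM before. In myo-2 the levels were 806 and 940 CPM against 1409 and 1438 CPM. Wild type fell to 444 and 347 CPM from 1549 and 1097 CPM, and ASE with henn-1 to 288 and 353 CPM from 1191 and 1119 CPM. In ASE henn-1(0) the oxidised libraries, at 1459 and 717 CPM, lay on either side of the untreated ones at 1315 and 1189 CPM.

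The fit called miR-250-3p higher in 4 genotypes, namely rgef-1 (2.75 ± 0.38), elt-2 (1.96 ± 0.37), rps-5 (1.64 ± 0.30) and unc-31 (1.54 ± 0.37, adjusted p = 0.000439). It was called lower in 4, namely myo-3 with henn-1 (-0.92 ± 0.36, adjusted p = 0.0279), myo-3 henn-1(0) (-1.01 ± 0.36, adjusted p = 0.0136), ASE with henn-1 (-3.69 ± 0.40) and wild type (-3.88 ± 0.41). Values of -0.63 ± 0.36 in rab-3, -0.68 ± 0.36 in myo-2 and -0.81 ± 0.36 in ASE henn-1(0) did not pass. With the transgenic line as a block, myo-2 (-0.72, adjusted p = 0.0399) and ASE henn-1(0) (-0.93, adjusted p = 0.0175) were called lower. With median-ratio factors myo-3 with henn-1 was at -0.18 and not called, myo-3 henn-1(0) turned to 0.69 and myo-2 to 0.57, neither called, and rab-3 was called lower (-0.83). DESeq2 called myo-3 henn-1(0) higher (0.69, adjusted p = 0.0331), and total counts as the scale called myo-2 lower (-0.71). The call in myo-3 henn-1(0) also ended without any 1 of its 4 libraries, with values from -0.003 to 0.28 in fits that recomputed the filter and the scaling. That in myo-3 with henn-1 ended without its untreated line 2 library (-0.93). The median over all arms in myo-3 henn-1(0) was -1.72, below the value for miR-250-3p. Of the 10 steps between neighbours 2 were called, from unc-31 to rab-3 (2.17 ± 0.51, adjusted p = 0.00204) and from myo-3 henn-1(0) to ASE with henn-1 (-2.69 ± 0.52, adjusted p = 3.12e-05, with 51.1% of all arms called). The latter was not called with total counts as the scale (-0.82, adjusted p = 0.1), and in it the driver and henn-1 change together. The effect in rgef-1 exceeded that in rab-3 by 3.39 ± 0.52 (adjusted p = 8.74e-06). The ends of the order depended on the scaling: rgef-1 led with TMM, while elt-2 led with median-ratio factors (2.80 against 2.44 in rgef-1), in DESeq2 (2.80 against 2.44) and without the filter (2.90 against 2.62), and ASE with henn-1 in place of wild type was last with total counts (-1.85) and without the filter (-2.35).

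**Figure D2:**
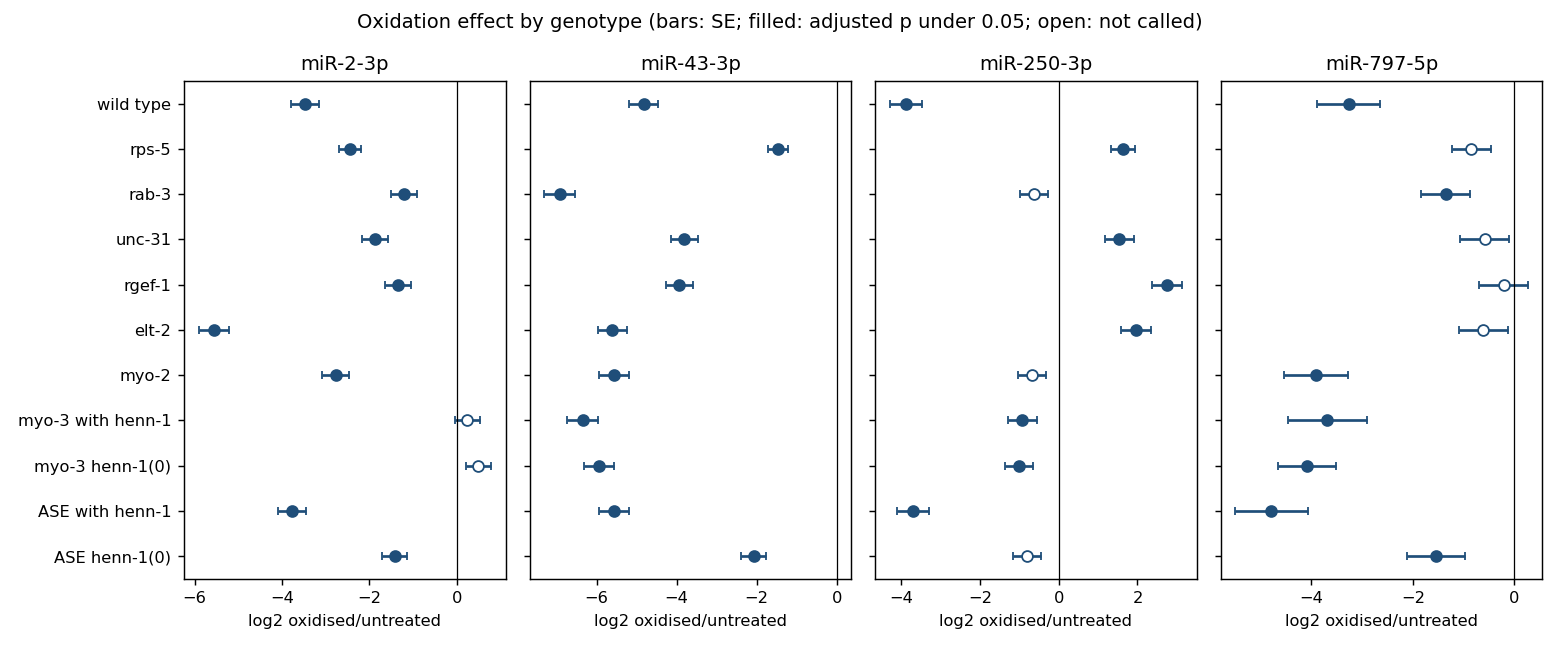
Fitted log2 ratio of oxidised to untreated counts, with its standard error, for the more abundant arm of each hairpin in the 11 genotypes, where filled points passed an adjusted p of 0.05. miR-2-3p is highest in the myo-3 genotypes (0.50 and 0.24), miR-43-3p is below 0 throughout (-1.47 to -6.92) and miR-250-3p is highest in rgef-1 (2.75) with this TMM scaling, where median-ratio factors put elt-2 first (2.80).

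miR-797-5p was rare, and was called lower in all 3 muscle genotypes. In the 2 myo-3 genotypes it fell from 12.9 to 20.7 CPM untreated to 0.879 to 1.39 CPM oxidised, which rests on 24 counts in myo-3 henn-1(0) and 3 counts in myo-3 with henn-1. On these 3 counts, with TMM-scaled library sizes, the untreated-to-oxidised ratio in myo-3 with henn-1 was 12.8 (95% counting interval 4.36 to 62.4). In myo-2 it fell from 22.8 and 16.4 CPM to 2.21 and 0.667 CPM. In unc-31 and rgef-1 the levels before and after lay close together, with 35.3 and 25.1 CPM after against 23.6 and 33.1 CPM before oxidation in unc-31, and 20.5 and 18.9 CPM against 18.1 and 22.1 CPM in rgef-1. In rab-3 it stood at 9.87 and 9.16 CPM against 17.2 and 18.4 CPM.

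miR-797-5p was called lower in 7 genotypes: ASE with henn-1 (-4.79 ± 0.71), myo-3 henn-1(0) (-4.09 ± 0.57), myo-2 (-3.92 ± 0.63), myo-3 with henn-1 (-3.68 ± 0.77), wild type (-3.26 ± 0.62), ASE henn-1(0) (-1.54 ± 0.56, adjusted p = 0.0271) and rab-3 (-1.36 ± 0.48, adjusted p = 0.0118). Values in rps-5 (-0.85 ± 0.39), elt-2 (-0.61 ± 0.48), unc-31 (-0.59 ± 0.48) and rgef-1 (-0.21 ± 0.48) did not pass, and no step between neighbours was called. The calls in wild type, which rested on 10 oxidised counts, and in ASE henn-1(0) ended under median-ratio factors (-0.93 and -1.07), total counts (-1.10 and -0.89) and DESeq2 (-0.93 and -1.07). They also ended without any 1 of 3 of the 4 wild type libraries (-0.16 to -1.33) and without any 1 of the 4 ASE henn-1(0) libraries (-0.88 to -1.23). The call in rab-3 ended with total counts (-0.90) and without any 1 of its 4 libraries (-0.81 to -1.03). In rps-5 the block by line gave a call (-0.99, adjusted p = 0.0116). miR-797-3p had 16 to 62 untreated counts a genotype and none after oxidation in wild type, myo-2, either myo-3 genotype or ASE henn-1(0). A floor of 3 counts over the group was used with TMM-scaled library sizes. By it the arm was at least 1.88-fold lower in myo-2 and at least 2.90-fold lower in myo-3 henn-1(0). In the other 3 the depth set no bound above 1. Median-ratio factors moved the median log2 change over all arms by 1.22 in myo-2 and by 1.70 in myo-3 henn-1(0). The bounds were not recomputed with them and hold for TMM only.

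Counted over all 8 arms, the calls of the members are given beside the share of all arms called. A difference between them was not tested. In wild type 1 was higher and 6 lower, where 20.8% of all arms were higher and 48.9% lower. In rps-5 3 were higher and 3 lower (34.9% and 22.5% of all arms), in rgef-1 3 and 3 (39.5% and 32.9%), and in rab-3 1 and 5 (36.2% and 36.7%). In unc-31 1 was higher and 3 lower (31.4% and 36.7%), in elt-2 1 and 4 (28.1% and 46.8%), and in ASE with henn-1 1 and 6 (23.5% and 48.4%). In myo-3 with henn-1 2 were higher and 3 lower (27.3% and 31.6%), and in myo-3 henn-1(0) 1 and 5 (18.7% and 50.9%). In myo-2 4 were lower and in ASE henn-1(0) 3, where 46.3% and 20.0% of all arms were lower and 20.5% and 17.5% higher. The members do not move as a block: every hairpin but mir-797 had an arm called higher in some genotype and an arm called lower in another.

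The make-up of the family after oxidation differed by driver. In both myo-3 genotypes miR-2-3p made up nearly all of the summed 3p arms, with 99.1% ± 0.214 (SD, n = 2) in myo-3 henn-1(0) and 99.0% ± 0.234 in myo-3 with henn-1. In elt-2 it made up 12.9% ± 0.868 and miR-250-3p 85.1%, an exchange of places that no untreated library showed. rgef-1 held 65.6% ± 1.27 miR-2-3p and 32.9% ± 1.15 miR-250-3p, and unc-31 83.5% ± 2.12 and 13.3% ± 3.34. In rab-3 the shares were 94.6% ± 1.69 and 5.15% ± 1.53, with 0.298% for miR-43-3p. The rps-5 lines held the most even mix, with 62.2% ± 3.49 miR-2-3p, 22.1% ± 1.88 miR-250-3p and 15.7% ± 1.65 miR-43-3p (n = 3). Wild type kept 92.5% miR-2-3p, 5.29% miR-43-3p and 2.16% miR-250-3p. The 4 3p arms summed took 6.13% ± 0.810 and 6.38% ± 0.628 of all counts in the oxidised myo-3 with henn-1 and myo-3 henn-1(0) libraries, against 4.83% to 6.10% on average in the untreated genotypes and 0.692% ± 0.0195 in oxidised elt-2.

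**Figure D3:**
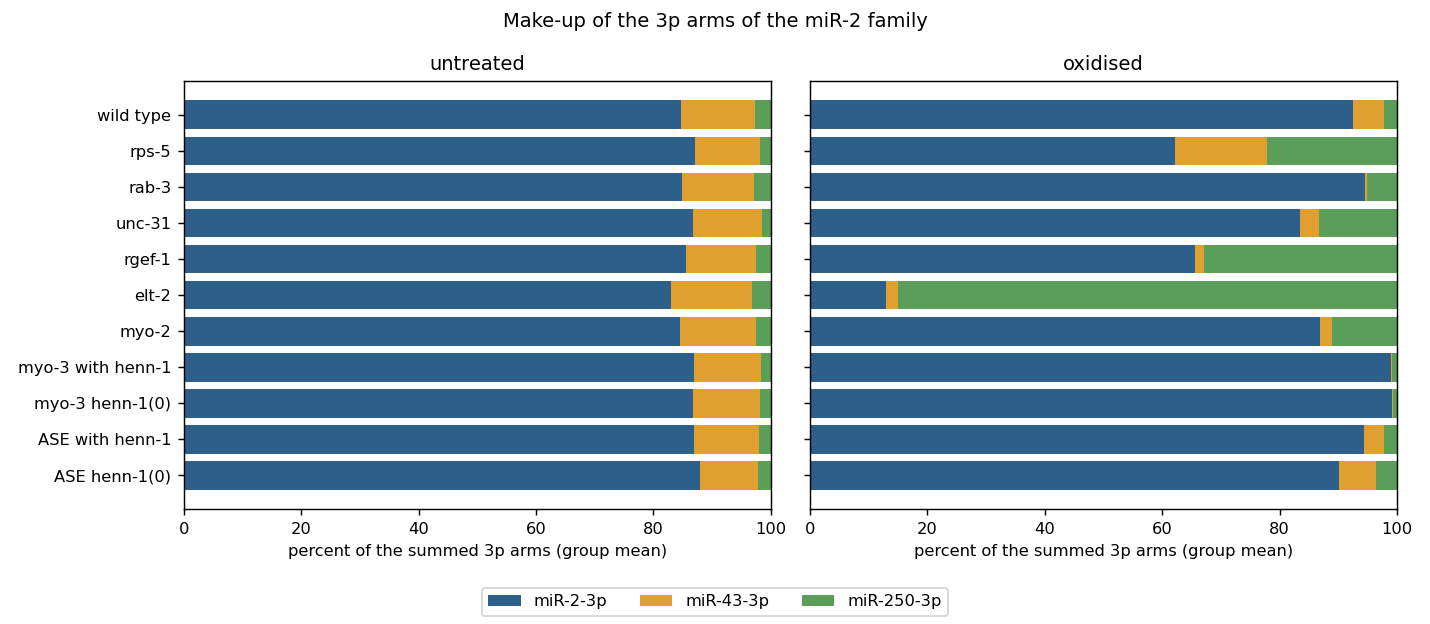
Mean percent of the summed 3p arms taken by miR-2-3p, miR-43-3p and miR-250-3p in the untreated (left) and oxidised (right) libraries of each genotype. The untreated bars are alike, while after oxidation miR-2-3p takes 99.1% in myo-3 henn-1(0) and miR-250-3p takes 85.1% in elt-2.

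Within a library, the balance of the members was compared between neurons and body wall muscle. The 6 pan-neuronal libraries of a treatment (rab-3, unc-31 and rgef-1) were pooled, as were the 4 of the myo-3 genotypes, and groups were compared by exact two-sided permutation tests with Benjamini-Hochberg adjustment over 9 tests. Between pools the test treats libraries as exchangeable, though they fall into groups by driver and myo-3 is the only muscle driver in it. Its p therefore does not measure the spread between drivers of a tissue. The log2 ratio of miR-250-3p to miR-2-3p was -4.56 and -3.91 in oxidised rab-3, -2.39 and -2.96 in unc-31 and -1.05 and -0.94 in rgef-1. In the oxidised myo-3 libraries it was -7.01, -6.62, -6.98 and -7.34. The pools do not overlap, and the neuronal mean was higher by 4.35 (exact permutation p = 0.00952, the smallest this design allows, adjusted p = 0.0286). Oxidation raised this ratio in neurons from -5.33 ± 0.61 to -2.63 ± 1.47 (SD, n = 6, exact permutation p = 0.00216, adjusted p = 0.00974). In myo-3 it lowered the ratio from -5.64 ± 0.22 to -6.99 ± 0.29 (SD, n = 4, exact permutation p = 0.0286, the smallest possible, adjusted p = 0.0367). A rise was not particular to neurons. The mean ratio also went from -5.06 to -2.97 in myo-2, from -5.59 to -1.49 in rps-5 and from -4.82 to 2.73 in elt-2. In ASE henn-1(0) it went from -5.33 to -4.84, in ASE with henn-1 from -5.44 to -5.40 and in wild type from -5.02 to -5.42. These changes outside the pools were not tested.

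The log2 ratio of miR-43-3p to miR-2-3p fell with oxidation in both pools. In neurons it went from -2.84 ± 0.21 to -6.20 ± 1.79 (exact permutation adjusted p = 0.00974) and in myo-3 from -2.94 ± 0.06 to -9.53 ± 0.68 (exact permutation adjusted p = 0.0367). The oxidised neuronal libraries were -8.99 and -7.84 in rab-3, -5.14 and -4.39 in unc-31 and -5.53 and -5.32 in rgef-1, and those of myo-3 were -10.09, -9.06, -8.83 and -10.15. The neuronal mean was higher by 3.33 (exact permutation p = 0.0190, adjusted p = 0.0367), and the pools overlapped through 1 rab-3 library. A fall was also seen in wild type, with no plant enzyme, from a mean of -2.75 untreated to -4.13 oxidised. In ASE with henn-1 the mean went from -2.99 to -4.79, in ASE henn-1(0) from -3.17 to -3.82 and in myo-2 from -2.72 to -5.48. In rps-5 the ratio was -2.97 ± 0.08 untreated and -1.99 ± 0.23 oxidised (n = 3), and in elt-2, where both arms fell, it was -2.57 and -2.64. These were not tested. With lines kept together the 4 myo-3 pairs cannot give an exact p below 0.125, which is what both ratios gave there. Without any 1 myo-3 library the adjusted p for both ratios in myo-3 was 0.0643 or 0.0735, and for their neuron-to-myo-3 differences, without any 1 oxidised myo-3 library, 0.0536 to 0.0735 in designs whose smallest possible p is larger. The ratio of miR-797-5p to miR-2-3p, added after the counts had been seen, was -10.98 ± 0.31 in untreated and -10.22 ± 0.90 in oxidised neurons (exact permutation p = 0.0779, adjusted p = 0.0850 over 12 tests). In oxidised myo-3 it was -15.49 ± 0.39 against -11.44 ± 0.39 untreated, on under 10 counts in the mean library.

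**Figure D4:**
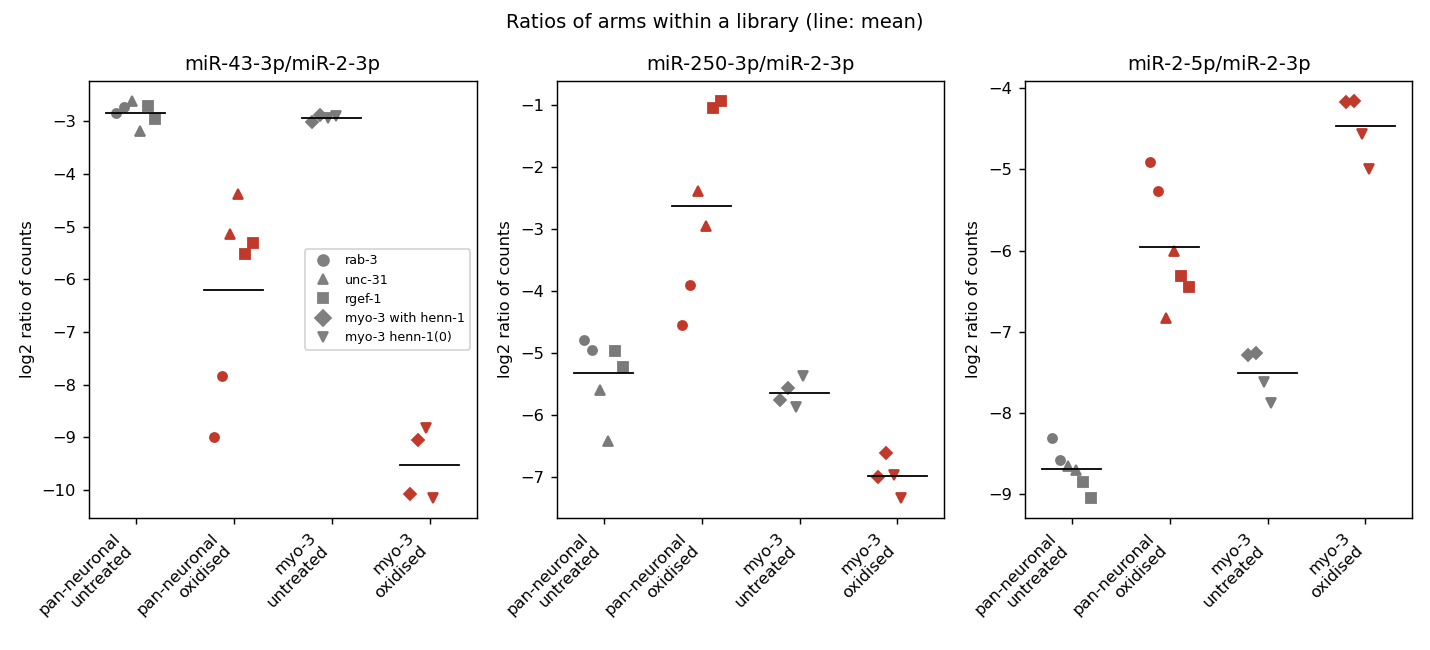
Log2 ratio within each library of miR-43-3p, miR-250-3p and miR-2-5p to miR-2-3p, for the pan-neuronal (6 a treatment) and myo-3 (4 a treatment) libraries, untreated and oxidised. The oxidised ratio of miR-250-3p to miR-2-3p is -4.56 to -0.94 in neurons and -7.34 to -6.62 in myo-3.

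The fitted interaction of the neuronal mean with each other driver put the members in different places. Against rps-5, 2 of 8 members were higher in neurons and 2 lower (27.1% and 30.1% of all arms), with miR-2-3p higher by 0.98 ± 0.29 (adjusted p = 0.00438) and miR-43-3p at -3.42 ± 0.31. Against elt-2, 3 members were higher (29.1% of all arms higher, 17.5% lower), with miR-2-3p at 4.09 ± 0.36. miR-43-3p (0.72 ± 0.35) and miR-250-3p (-0.75 ± 0.42) did not pass there, though the latter was called lower with median-ratio factors (-1.70). Against myo-2, 3 members were higher (27.6% of all arms higher, 8.86% lower): miR-2-3p by 1.30 ± 0.34, miR-250-3p by 1.90 ± 0.42 and miR-797-5p by 3.20 ± 0.68. The median over all arms was 0.87 in that comparison, and the first of these calls ended with median-ratio factors (-0.07) and without any 1 of the 16 libraries compared (0.41 to 0.90). The miR-250-3p call ended with median-ratio factors (0.53) and without the oxidised line 7 library of myo-2 (1.01), and the miR-797-5p call without its oxidised line 30 library (1.91, adjusted p = 0.0762).

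Against myo-3 henn-1(0), 4 members were higher in neurons and 2 lower (42.3% and 13.7% of all arms, with a median of 1.35 over all arms). miR-2-3p was lower by 1.97 (-1.97 ± 0.34, adjusted p = 4.93e-06), and this was so under every alternative tried. miR-250-3p at 2.23 ± 0.42 and miR-797-5p at 3.37 ± 0.62 were higher. miR-43-3p was called higher at 1.05 ± 0.35 (adjusted p = 0.0103), below the median of all arms, and this call turned to -0.70 with median-ratio factors. It also ended without any 1 of the 16 libraries compared except the oxidised line 2.2 library of myo-3 henn-1(0) (-0.10 to 0.50 in the others). The miR-250-3p call ended with median-ratio factors (0.41) and in a fit of only the libraries compared (0.96). Against ASE henn-1(0), 2 members were higher and 1 lower (13.7% and 17.2% of all arms), with miR-43-3p at -2.82 ± 0.36 and miR-250-3p at 2.03 ± 0.42, while miR-2-3p was at -0.05 ± 0.33 and miR-797-5p at 0.82 ± 0.63.

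The minor arms drew other calls than their partners. Over the 11 genotypes, however, the effects of the 2 miR-2 arms (Pearson r 0.94) and of the 2 miR-250 arms (0.95) went together. miR-2-5p was called higher in both myo-3 genotypes (3.45 and 3.36), in which miR-2-3p did not pass, and in rab-3 (2.24) and rgef-1 (1.24), in which miR-2-3p was called lower. In myo-2 it did not pass (0.85), and miR-2-3p was called lower there. In myo-3 with henn-1 it went from 325 and 303 CPM to 3698 and 3078 CPM, and in myo-3 henn-1(0) from 265 and 168 CPM to 2865 and 1839 CPM. In rab-3 it went from 120.3 and 120.5 CPM to 1066 and 456 CPM, while in elt-2 it fell from 110.2 and 60.2 CPM to 5.36 and 2.95 CPM. The log2 ratio of miR-2-5p to miR-2-3p rose with oxidation by 2.73 in neurons (exact permutation adjusted p = 0.0130 over 12 tests) and by 3.04 in myo-3 (adjusted p = 0.0429, exact permutation). It was lower in oxidised neurons than in oxidised myo-3 by 1.49 (-1.49, exact permutation adjusted p = 0.0429), with overlap through rab-3. The call in myo-3 ended without any 1 of its 8 libraries (2.92 to 3.22), and the difference between pools lost its call without any 1 of 8 of its 10 libraries (-1.67 to -1.32). The ratio of miR-250-5p to miR-250-3p was -0.41 apart between oxidised and untreated neurons (exact permutation adjusted p = 0.387) and 1.03 apart in myo-3 (exact permutation adjusted p = 0.0429, lost without any 1 library, 0.89 to 1.2). By the fit, miR-2-5p was called higher in 4 and lower in 3 genotypes, and miR-250-5p higher in 2 and lower in 2. The 2 lower calls of miR-250-5p ended under each other scaling, filter, tool and choice of libraries tried, and its higher calls numbered up to 7 there.

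miR-43-5p behaved unlike its partner and was highest after oxidation in the genotypes that kept henn-1. In wild type, which had no plant enzyme, it rose from 48.4 and 26.2 CPM to 1608 and 1118 CPM. In ASE with henn-1 it rose from 40.2 and 22.3 CPM to 834 and 716 CPM, and in myo-3 with henn-1 from 53.6 and 52.7 CPM to 272 and 261 CPM. These are the 3 genotypes that kept henn-1, and each oxidised library was above every untreated one of the series (20.6 to 69.4 CPM). In the matched henn-1(0) lines it went from 69.4 and 46.1 CPM to 8.86 and 6.34 CPM in myo-3 and from 25.5 and 35.2 CPM to 26.7 and 46.4 CPM in ASE. Among the other henn-1(0) genotypes, the oxidised level was highest in rps-5, at 115.7, 62.6 and 40.6 CPM, where the arm was also called higher. By the fit it was called higher in 4 genotypes, these and the 3 with henn-1, and lower in 4. The log2 effect was lower in henn-1(0) than with henn-1 in myo-3 (-5.16 ± 0.72, adjusted p = 4.05e-07) and in ASE (-3.16 ± 0.70, adjusted p = 0.000207). In the myo-3 pair this was the only 1 of the 8 members called, where 14.4% of all arms were called in either direction. In the ASE pair 6 members were called, where 58.0% of all arms were and the median over all arms was 2.05.

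The other 5 members called in the ASE pair were all higher in henn-1(0), and miR-43-5p alone was lower. The values were 2.35 ± 0.41 for miR-2-3p, 3.50 ± 0.44 for miR-43-3p, 2.89 ± 0.52 for miR-250-3p and 3.24 ± 0.95 for miR-797-5p. With median-ratio factors miR-2-3p (0.44), miR-250-3p (0.97) and miR-797-5p (1.36, and 2.06 with total counts) were not called, and in a fit of only the libraries compared miR-2-3p (-0.28), miR-43-3p (0.85), miR-250-3p (0.29) and miR-797-5p (0.63) were not. The call for miR-797-5p also ended without any 1 of its 8 libraries (1.41 to 2.02). That for miR-2-3p ended without any 1 of 6 of them (0.57 to 0.96). That for miR-250-3p ended without the oxidised line 5 library of either genotype (1.01 and 0.78). In the myo-3 pair, median-ratio factors gave calls for miR-2-3p (1.22) and miR-43-3p (1.38), as did leaving out any 1 of 7 libraries for miR-2-3p (1.30 to 1.83) and of 6 for miR-43-3p (1.50 to 2.22).

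**Figure D5:**
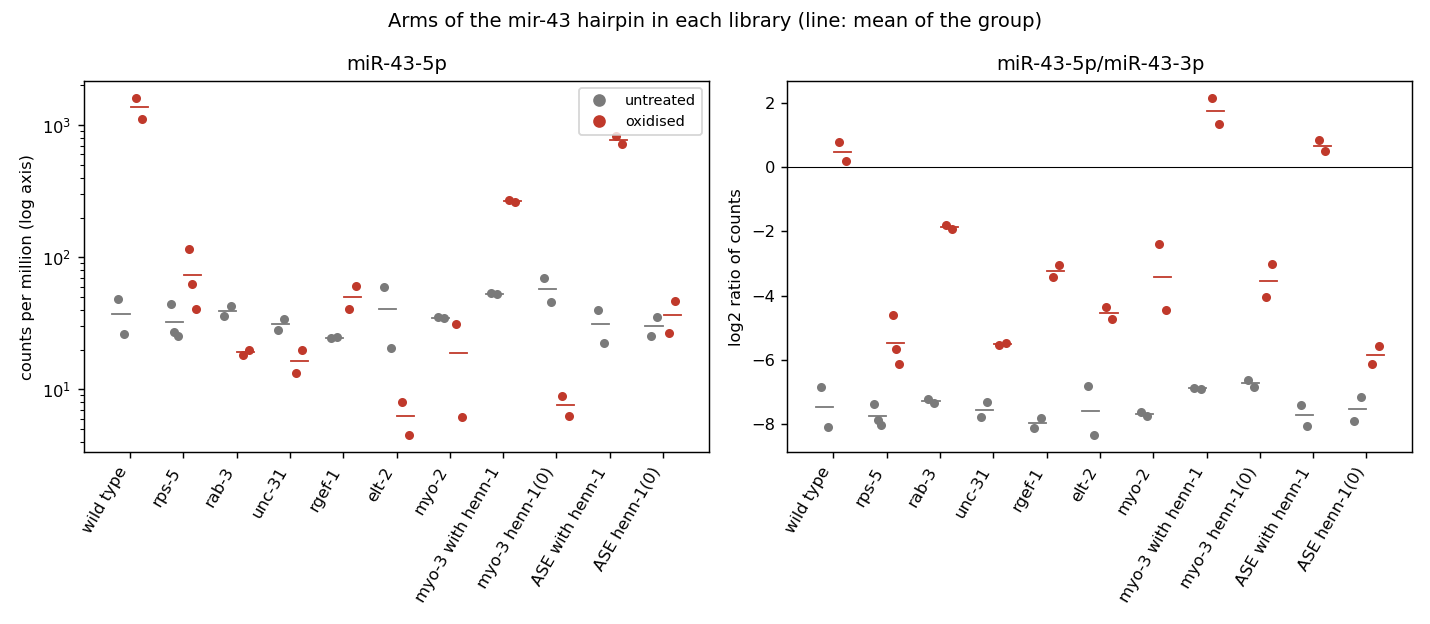
Level of miR-43-5p in CPM (log axis) and log2 ratio of miR-43-5p to miR-43-3p in every library by genotype, untreated in grey and oxidised in red. The oxidised ratio is above 0 in the 3 genotypes with henn-1 (0.19 to 2.15) and below -1.79 in all others.

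After oxidation the 5p arm of mir-43 was the more abundant one in the 3 genotypes with henn-1, and the 3p arm stayed so in the other 8. The log2 ratio of miR-43-5p to miR-43-3p was -6.73 to -7.97 on average in every untreated group, so the 3p arm was far more abundant. In oxidised libraries it was 0.48 ± 0.41 in wild type, 0.67 ± 0.26 in ASE with henn-1 and 1.75 ± 0.57 in myo-3 with henn-1. In myo-3 henn-1(0) it was -3.54 ± 0.73 and in ASE henn-1(0) -5.86 ± 0.39. Oxidation raised the ratio by 4.07 in the pan-neuronal libraries (exact permutation adjusted p = 0.0130) and by 5.91 in the 4 myo-3 pairs (exact permutation adjusted p = 0.0429, lost without any 1 of these libraries, the values lying from 4.90 to 6.97). Oxidised neurons and oxidised myo-3 differed by -2.64, which did not pass (exact permutation p = 0.124, adjusted p = 0.135), and the myo-3 pool mixes genotypes with and without henn-1. miR-43-5p had fractional counts, which may mark shared reads, in 10 libraries, and whether the counting used strand is not given in these sources. Reads of mir-43 and of the ZK930.12 transcript on the other strand could therefore not be told apart.

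Across the 11 genotypes the log2 effects of miR-2-3p and miR-2-5p had a Pearson r of 0.94, and those of miR-250-3p and miR-250-5p of 0.95, against 0.58 for miR-797-3p and miR-797-5p and 0.13 for miR-43-3p and miR-43-5p. Between hairpins it was -0.07 for miR-2-3p and miR-43-3p, 0.03 for miR-2-3p and miR-250-3p and 0.82 for miR-250-3p and miR-797-5p. These 11 points share library scaling, and the values are descriptions. Of 283 other arms compared, those most like miR-2-3p were miR-86-3p (0.97), miR-86-5p (0.93) and miR-794-5p (0.81). Those most like miR-43-3p were miR-788-5p (0.93), miR-244-3p (0.91) and miR-45-3p (0.89). The log2 effects of miR-45-3p were almost those of miR-44-3p (0.592 and 0.593 in rps-5), and the counting could have split the same reads between them. Those most like miR-250-3p were miR-4810b-3p (0.94), miR-61-3p (0.94) and miR-4808-3p (0.93). For the sparse miR-797-3p no arm passed 0.66 (miR-237-5p, miR-8205-3p and miR-49-5p, 0.64 to 0.66).

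Arms of the neighbouring hairpins were like the member beside them in some cases and unlike it in others. miR-42-3p and miR-44-3p, which flank mir-43, had r of 0.87 and 0.89 with miR-43-3p over the 11 genotypes, while miR-42-5p had 0.31 and miR-44-5p 0.50. As miR-44-3p may share its reads with miR-45-3p, its likeness cannot be assigned to the neighbouring hairpin alone. miR-61-3p, beside mir-250, had 0.94 with miR-250-3p and miR-61-5p -0.74. miR-247-3p and miR-247-5p, beside mir-797, had 0.49 and 0.48 with miR-797-5p, below the 0.90 that miR-61-3p from another chromosome had with it. miR-42-3p had its highest effects in rps-5 (0.02, not called), rgef-1 (-0.85, adjusted p = 0.0141) and ASE henn-1(0) (-1.11, adjusted p = 0.00441), of which the last 2 were called lower. miR-44-3p was called higher in rps-5 (0.59), and its values in rgef-1 (-0.26) and ASE henn-1(0) (-0.58) did not pass. miR-43-3p was called lower in all 3 of these genotypes, and in its order unc-31 stood next after rps-5 and ASE henn-1(0), ahead of rgef-1. In rab-3, where miR-43-3p was at -6.92, miR-42-3p was at -3.03 and miR-44-3p at -3.25. miR-61-3p was called higher in rps-5 (0.70) and was not called in elt-2 (0.11), rgef-1 (0.32) or unc-31 (-0.68), where miR-250-3p was higher. miR-247-3p was called lower in all 11 genotypes on low counts.

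High oxidised levels in the genotypes that kept henn-1 were not particular to miR-43-5p among these 5p arms. miR-61-5p was called higher in wild type (2.61), ASE with henn-1 (2.07) and myo-3 with henn-1 (adjusted p = 0.0131) and lower in the 8 henn-1(0) genotypes. Its mean level was 28.8 CPM before and 767 CPM after oxidation in wild type, 35.2 and 562 CPM in ASE with henn-1, 53.2 and 130.2 CPM in myo-3 with henn-1, and 47.0 and 6.26 CPM in myo-3 henn-1(0). miR-42-5p was at 27.3 and 591 CPM in wild type, where it was called higher (2.31), and at 38.6 and 271 CPM in ASE with henn-1, where its log2 effect of 0.93 did not pass. It was also called higher in rgef-1 (2.24) and rps-5 (1.34). miR-44-5p was called lower in wild type (-1.21), ASE with henn-1 (-2.74) and myo-3 with henn-1 (-1.81). In wild type, however, its mean level rose from 26.7 to 48.9 CPM, so its direction there depended on the scaling. The level went from 33.1 to 19.4 CPM in ASE with henn-1 and from 53.4 to 16.0 CPM in myo-3 with henn-1.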

How the data were processed

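The deposited values are expected counts per mature arm, estimated by the authors and partly fractional (20 to 51 arms a library, up to 8.95% of counts, tolerance 1e-06). Per the submitters' processing notes, cutadapt 1.2.1, HTSeq 0.6.1p1 and WBcel235 were used. Which aligner, annotation and strand setting were used is not stated in these sources. Per the labels' protocols, RNA of 18 to 30 nt was selected by size.

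Counts of the 473 worm arms were rounded and tested in edgeR 4.0.16 (limma 3.58.1, R 4.3.3; quasi-likelihood, TMM scaling, filter at a minimum count of 10, leaving 395 arms; 22 groups, 46 libraries, 24 residual degrees of freedom). Each of 72 comparisons was adjusted by Benjamini-Hochberg over all arms and called at 0.05. The standard error is the size of the log2 change over the square root of F. Within-library log2 ratios used a pseudocount of 0.5 counts, with exact permutation tests in scipy 1.17.1 (Python 3.11.15, numpy 2.4.6, pandas 2.3.3, matplotlib 3.10.9). Intervals (95%) and the floor of 3 counts used TMM-scaled library sizes and cover counting error only. The fit was tested on simulated data. DESeq2 1.42.0, other scalings, no filter, only the libraries compared, the line as a block and leaving out each library were alternatives. A fit without a library also recomputed the filter and the scaling, so it changes more than that library.

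The members and lists were chosen with earlier results of these data known. Arms named as alike were the 3 with the highest correlation of effects over genotypes. The choice of miR-797-5p, and limiting the alternatives to the more abundant arm of each hairpin, miR-43-5p in the henn-1 pairs, counts of genotypes and ratios, were made after values were seen. Same-numbered libraries share a transgenic line, per the labels, and so are paired. The correlation of their deviations was 0.774 in rps-5, 0.497 in rgef-1, 0.473 in elt-2, 0.406 and 0.287 in the myo-3 genotypes, 0.152 in myo-2, 0.118 and 0.0906 in the ASE genotypes, 0.0185 in rab-3 and -0.0019 in unc-31. Nothing says that the libraries of a line came from separate cultures, so p-values measure the spread between libraries, which may be technical in part.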

Additional observations from a re-analysis of the deposited data

Results flagged for a closer look

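These results were singled out because the effect of oxidation differed between genotypes in a test of the difference itself (edgeR, log2 scale, Benjamini-Hochberg adjusted). For miR-2-3p the pan-neuronal mean differed from rps-5 by 0.98, from elt-2 by 4.09, from myo-2 by 1.30 and from myo-3 henn-1(0) by -1.97. Its effect in myo-3 with henn-1 exceeded that in rab-3 by 1.45, that in ASE with henn-1 exceeded that in elt-2 by 1.79, and ASE henn-1(0) exceeded ASE with henn-1 by 2.35. For miR-43-3p the pan-neuronal mean differed from rps-5 by -3.42, from myo-3 henn-1(0) by 1.05 and from ASE henn-1(0) by -2.82. Its effect in unc-31 exceeded that in rab-3 by 3.11, rgef-1 exceeded rab-3 by 2.98, ASE henn-1(0) exceeded unc-31 by 1.74 and ASE with henn-1 by 3.50.

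For miR-250-3p the pan-neuronal mean differed from myo-2 by 1.90, from myo-3 henn-1(0) by 2.23 and from ASE henn-1(0) by 2.03. Its effect in unc-31 exceeded that in rab-3 by 2.17 and that in rgef-1 did so by 3.39. ASE henn-1(0) exceeded ASE with henn-1 by 2.89, and ASE with henn-1 differed from myo-3 henn-1(0) by -2.69. For miR-797-5p the pan-neuronal mean differed from myo-2 by 3.20 and from myo-3 henn-1(0) by 3.37, and ASE henn-1(0) exceeded ASE with henn-1 by 3.24. For miR-43-5p henn-1(0) differed from henn-1 present by -5.16 in myo-3 and by -3.16 in ASE. Several of these calls ended under other scalings, as given in the text.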

How the results depend on the processing

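Fitted sizes depend on the scaling, while within-library ratios do not. With median-ratio factors the median over all arms moved most in wild type, ASE with henn-1, myo-3 henn-1(0) and myo-2. It also moved by 0.73 in myo-3 with henn-1 and by 0.71 in elt-2. In elt-2 it moved by 1.08 without the filter and by 0.96 with only the libraries compared. Oxidised libraries of wild type and ASE with henn-1 were shallow. Those of ASE henn-1(0) were shallow too (1011043 and 1055616 counts), and its median moved by 0.46 with median-ratio factors, against 1.70 in myo-3 henn-1(0). A part of depth in this was not tested. The first or last place in the order of genotypes changed with the setting for every arm except miR-2-3p and miR-2-5p. Counts of a few molecules limit mir-797. Over the alternatives other than leaving out a library, 599 values kept direction and call, 46 lost a call, 33 gained one, 52 changed sign and 18 moved; leaving out a library gave 742, 174, 37 and 99. The cause was not tested.

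With median-ratio (RLE) factors, the neuronal mean minus myo-2 was -0.069 for miR-2-3p, -0.65 for miR-43-3p and 0.53 for miR-250-3p; minus elt-2 it was -0.14 for miR-43-3p and -1.70 for miR-250-3p; minus myo-3 henn-1(0) it was -0.70 for miR-43-3p and 0.41 for miR-250-3p. DESeq2 gave -0.069, -0.65, 0.53, -0.14, -1.70, -0.71 and 0.41 for the same. Under RLE and DESeq2, miR-250-3p was 0.57 in myo-2, 0.69 in myo-3 henn-1(0) and 0.87 between the myo-3 genotypes, miR-797-5p was 0.15 in elt-2, and rgef-1 minus unc-31 -0.068 (RLE) and -0.072 (DESeq2), and between the myo-3 genotypes 0.58 (RLE) and 0.59 (DESeq2).

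With total counts, the neuronal mean minus elt-2 was 1.16 for miR-43-3p and 0.29 for miR-797-5p, and minus myo-2 1.17 for miR-43-3p. rgef-1 minus unc-31 was -0.019 for miR-2-3p and -0.14 for miR-797-5p, miR-797-5p was 0.11 in unc-31, and untreated henn-1(0) minus present was -0.044 for miR-2-3p and -0.0071 for miR-43-3p.

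Without the filter, miR-2-3p was -0.15 in myo-3 with henn-1, 0.80 for neurons minus myo-2, 0.053 for unc-31 minus rab-3, -0.20 for rgef-1 minus unc-31 and -0.089 for untreated henn-1(0) minus present. miR-43-3p was -0.082 for neurons minus elt-2, 0.12 minus myo-3 henn-1(0) and -0.050 untreated. miR-250-3p was 0.027 in myo-3 henn-1(0), -1.55 for neurons minus elt-2, 1.34 between the myo-3 genotypes and -0.0023 untreated. miR-797-5p was 0.36 in elt-2, -0.33 for rgef-1 minus unc-31 and 1.02 between the myo-3 genotypes.

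With only the libraries compared, miR-2-3p was 0.65 for neurons minus myo-2, 0.46 minus ASE henn-1(0), -0.058 for rgef-1 minus unc-31, -0.28 between the ASE genotypes and -0.00076 untreated. miR-43-3p was -0.26 for neurons minus myo-3 henn-1(0). miR-250-3p was 0.18 in myo-2, 0.24 in myo-3 henn-1(0), 0.96 for neurons minus myo-3 henn-1(0) and 1.56 between the myo-3 genotypes. miR-797-5p was 0.15 in unc-31, 0.10 in elt-2, 1.36 for neurons minus ASE henn-1(0), -0.18 for rgef-1 minus unc-31 and 1.23 between the myo-3 genotypes.

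Genotypes called higher for miR-2-3p numbered 2 under RLE and DESeq2 and 1 without the filter and with only the libraries compared. For miR-250-5p they numbered 5, 7, 4 and 5, and those called lower 0 in each and with total counts. Genotypes called lower numbered 2 for miR-43-5p and 4 for miR-797-5p with total counts, and 3 (DESeq2) and 1 (only the libraries compared) for miR-797-3p.

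The replicate block by line ended the myo-3 ratio calls, whose differences stayed at -6.60 (miR-43-3p to miR-2-3p), -1.34 (miR-250-3p to miR-2-3p), 3.04 (miR-2-5p to miR-2-3p), 5.91 (miR-43-5p to miR-43-3p) and 1.03 (miR-250-5p to miR-250-3p), and for the more abundant arms of the hairpins changed no fitted call recomputed with it other than the 3 given in the text. For the minor arms it moved the genotypes called higher from 4 to 5 and lower from 3 to 4 for miR-2-5p, lower from 4 to 5 for miR-43-5p and higher from 2 to 3 for miR-250-5p. With myo-3 henn-1(0) alone, miR-43-5p to miR-43-3p differed by 0.0023 between pools, and without rab-3 the neuronal change of miR-797-3p to miR-2-3p was 0.21; leaving out rab-3 was chosen after seeing the data.

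Leaving out 1 library at a time gave, for miR-2-3p, -0.16 to 0.38 in myo-3 with henn-1, 0.41 to 0.90 for neurons minus myo-2, -0.31 to 0.19 minus ASE henn-1(0), -0.49 to 0.050 for unc-31 minus rab-3, -0.35 to 0.081 for rgef-1 minus unc-31 and -0.135 to 0.074 untreated. For miR-43-3p it gave -0.069 to 0.13 for neurons minus myo-2, -0.099 to 1.15 minus myo-3 henn-1(0) and -0.096 to 0.093 untreated. For miR-250-3p it gave 0.16 to 0.69 in myo-2, -0.0031 to 0.28 in myo-3 henn-1(0), -0.51 to 0.47 for neurons minus rps-5, -1.50 to -0.88 minus elt-2, 1.01 to 1.53 minus myo-2, -0.083 to 1.32 between the myo-3 genotypes and -0.017 to 0.14 untreated. For miR-797-5p it gave -0.19 to 0.46 in unc-31, -0.29 to 0.16 in rgef-1, -0.30 to 0.64 in elt-2, -0.28 to 1.025 for neurons minus rps-5, -0.89 to 0.041 minus elt-2, 1.91 to 3.33 minus myo-2, -0.51 to 0.14 for rgef-1 minus unc-31 and -0.57 to 1.13 between the myo-3 genotypes. Ratios of miR-43-3p to miR-2-3p lay at -6.83 to -6.39 in myo-3 and 2.97 to 3.89 between pools, of miR-250-3p to miR-2-3p at -1.465 to -1.225 and 4.01 to 4.74, of miR-2-5p to miR-2-3p at 2.92 to 3.22 and -1.70 to -1.32, of miR-43-5p to miR-43-3p at 4.90 to 6.97 in myo-3, of miR-250-5p to miR-250-3p at 0.89 to 1.2 and -1.97 to -1.51, and of miR-797-3p to miR-2-3p at -0.73 to 0.037 in neurons.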
